A study of Mus musculus with 3 samples.

Results

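The cells described here are mouse embryonic stem cells in S phase, the part of the cell cycle in which DNA is copied, at 3 doses of fibroblast growth factor 4 (FGF4). They were picked from single-cell RNA sequencing by 2 scores. Intact cells were those with at most 10% of their unique molecular identifiers (UMIs, counts of single captured transcripts) from mitochondrially encoded genes, and with a total within 3-fold of the median of their library. The S score was the sum of UMIs per 10000 of 10 genes (Mcm2, Mcm3, Mcm5, Mcm6, Pcna, Cdc6, Slbp, Ung, Rrm2 and Gins2). The G2/M score was the same sum over 10 genes of G2 and mitosis (Ccnb1, Ccnb2, Cdk1, Top2a, Aurka, Plk1, Cenpe, Cenpf, Cdc20 and Ube2c). Each score was expressed in SD from the mean of its library, and a cell was placed in S phase where its S value was above 0 and above its G2/M value. This gave 772 of 1863 intact cells, which were part of 2222 deposited cells. The other intact cells were 704 in G2 and M phase, with a G2/M value above 0 and not below the S value, and 387 low in both scores. Levels given below as outside refer to these other intact cells, which the rule does not show to lie outside S phase.

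The study compared 3 libraries, 1 per dose, all from Fgf4 -/- cells of the E14tg2a line, which lack functional alleles of the gene for their own FGF4. Cells were plated in ES medium with leukaemia inhibitory factor (LIF). For the next 24 h they were kept in N2B27, a serum-free medium, with heparin, which helps FGF ligands bind their receptors, and Chiron, an inhibitor of the kinase GSK3. The groups received 0, 5 or 50 ng/ml FGF4 over those 24 h and had the other stated conditions in common. No separate cultures, clones or repeat libraries per dose were given, so no test between doses was possible. Cells of 1 library are not replicates, and every interval below covers counting error only (95%). Fgf4 transcripts in the S-phase cells stood at 49.0, 22.1 and 20.2 CPM (UMIs of a gene summed over the cells of a class, per 1000000 UMIs of those cells) at 0, 5 and 50 ng/ml. Reads of the 3' end can come from a mutated allele, so these levels check nothing about the genotype.

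Before S phase, cells load the MCM helicase onto replication origins with the help of Cdc6 and Cdt1. Cyclin E with its kinase Cdk2 then promotes entry into S phase, in part by releasing E2F transcription factors, whose targets include genes for replication enzymes and nucleotide synthesis. Replication-dependent histones are made at high rates while DNA is copied, and their mRNAs end in a stem-loop bound by Slbp instead of a poly(A) tail. Mouse embryonic stem cells spend a large share of a short cycle in S phase and keep cyclin E and Cdk2 activity through much of that cycle. FGF4 signals through the ERK kinases and moves these cells out of naive pluripotency.

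The share of intact cells that met the rule was 144 of 359, 312 of 706 and 316 of 798 at 0, 5 and 50 ng/ml. These were 40.1% (exact binomial interval 35.0 to 45.4), 44.2% (40.5 to 47.9) and 39.6% (36.2 to 43.1). Because scores were centred within each library, the rule itself holds these shares near each other, and they do not measure how the length of S phase depended on dose. After each cell was thinned to 25000 UMIs, S-phase cells had a median of 49, 52 and 52 UMIs of the S score genes at 0, 5 and 50 ng/ml, against 32, 35 and 35 in other intact cells. Their G2/M score genes had medians of 43.5, 43 and 43 UMIs, against 82, 73 and 71.5 in G2 and M phase cells and 49, 44.5 and 43 in cells low in both. Means of the same sums were 46.4, 43.9 and 43.7 UMIs in S-phase cells and 45.8, 42.6 and 42.2 in the low cells, so that medians and means ordered these classes differently. A G2/M value above 0 was found in 11.1%, 10.3% and 13.3% of members.

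The class is a range cut from continuous scores and not a separate group of cells. Within 0.1 SD of the boundary lay 14, 35 and 31 cells, of which 4, 22 and 11 were inside. The S score of the cell just inside was 19.4, 16.94 and 16.9 UMIs per 10000 at 0, 5 and 50 ng/ml, and of the cell just outside 15.7, 16.92 and 17.7. At 0 and 50 ng/ml the order of these values depends on the G2/M score, which moves the boundary for cells with both scores above 0. Across intact cells the S and G2/M scores were negatively related, with Pearson's r of -0.34, -0.40 and -0.36 over 359, 706 and 798 cells of 1 library each.

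**Figure D1:**
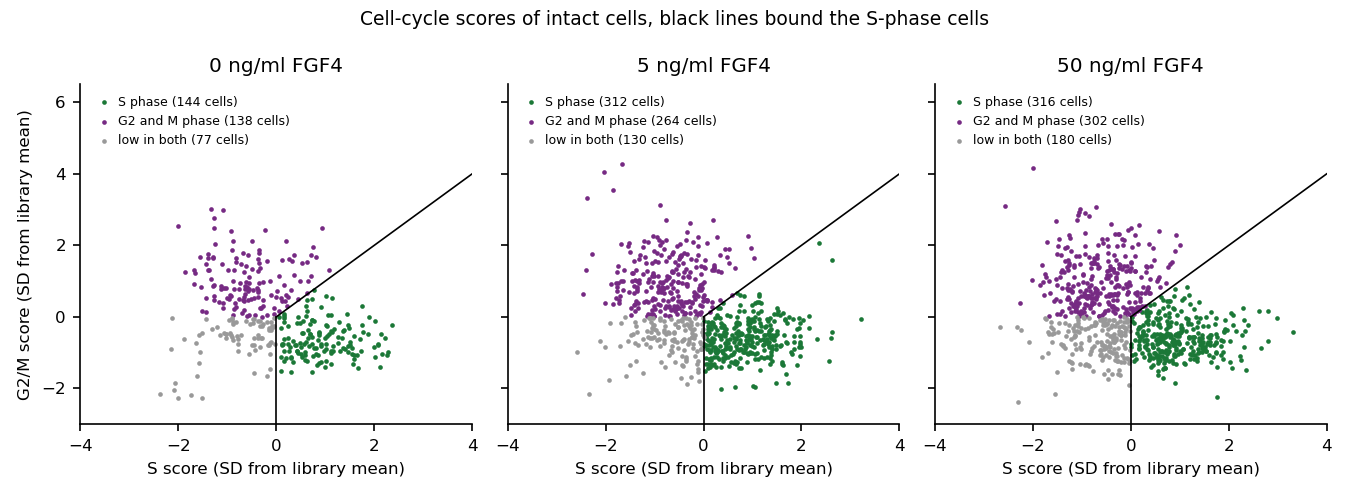
S score (x axis) and G2/M score (y axis) of each intact cell, both in SD from the mean of its library, with 1 panel per FGF4 dose and 1 point per cell. The 144, 312 and 316 S-phase cells (green) fill the lower right of each panel, and no gap parts them from the cells low in both scores (grey) or in G2 and M phase (purple).

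S-phase cells held fewer transcripts than cells in G2 and M phase. Their median was 97924, 90119 and 85373 UMIs per cell at 0, 5 and 50 ng/ml, against 128352, 117236 and 111461 in G2 and M phase and 92382, 93238 and 88249 in cells low in both. CPM removes this difference in total, so that levels below are shares of the RNA captured and not molecules per cell. The mitochondrial share of UMIs was alike in all classes, with medians between 5.10% and 5.63%. Scrublet, which looks for 2 cells in 1 droplet, marked 6, 2 and 11 members. No cell barcode was shared between libraries. The mitochondrial limit had removed 12, 133 and 153 cells, so that the libraries with ligand lost more cells to it. Either trypsin or Accutase was used to detach cells, and the labels do not tie an enzyme to a dose. Depth and the number of cells removed move with dose, and their part in the dose results was not tested.

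Markers of the label were checked next. Cdc6, Ung, Slbp and Rrm2 were score genes, and their levels in S-phase cells, 2.39, 2.60 and 2.29-fold those of other intact cells for Cdc6 at 0, 5 and 50 ng/ml, only restate the rule. Of the 10 score genes, 8 were at least 25% higher in all 3 libraries, and Mcm2 and Mcm3 were not. Ccne1, which encodes cyclin E1 and was the 1 marker outside the scores, stood in S-phase cells at 269.9 (262 to 278), 409 (402 to 417) and 443 (435 to 451) CPM. In other intact cells it stood at 141 (137 to 146), 226 (222 to 231) and 275 (271 to 279.8) CPM. The S-phase level was higher at every dose, by 1.91 (1.83 to 1.99), 1.81 (1.76 to 1.86) and 1.61 (1.57 to 1.65)-fold. Markers of other cell types were summed as well. Of 12 fibroblast genes 6 had no UMI in the S-phase cells of each library, and the sum of all 12 was 6.73, 7.75 and 8.42 CPM. The 12 primitive endoderm markers summed to 47.9, 28.4 and 28.4 CPM in S-phase cells and to 50.7, 30.2 and 31.1 CPM in the others. The 10 trophectoderm markers summed to 67.5, 63.2 and 63.1 CPM in S-phase cells and to 58.3, 48.7 and 50.4 CPM in the others. The sum was higher in S-phase cells at each dose. Tfap2c, at 50.9, 32.5 and 23.8 CPM in S-phase cells, had log2 ratios to the others of 0.19, 0.03 and -0.27. At 50 ng/ml it was thus lower in S-phase cells. The 11 markers of the 2-cell-like state summed to 252, 264 and 263 CPM in S-phase cells, of which Eif1a made 252, 264 and 261 CPM, and to 295, 263 and 319 CPM in the others. The 8 neuroectoderm markers summed to 131, 52.8 and 45.9 CPM in S-phase cells and to 131, 51.4 and 46.8 CPM in the others, with Tubb3 at 105, 31.0 and 25.5 CPM in S-phase cells. None of the 12 primitive endoderm markers was at 0, Col3a1, Lum, Postn, Fap and Prrx1 of the fibroblast list were at 0 at every dose, and Hand1 or Elf5 was at 0 among 10 trophectoderm genes.

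All contrasts between S-phase cells and the other intact cells of the same library are descriptions, because the classes were cut from the same counts. Genes were considered if they reached 20 CPM in at least 1 of the 2 pools, and a level at least 25% higher or 20% lower, the same ratio in either direction, was counted. Of 5584, 5573 and 5471 genes outside the scores, 3.13%, 3.82% and 2.76% were that much higher in S-phase cells at 0, 5 and 50 ng/ml, and 4.28%, 2.42% and 2.07% that much lower. In all 3 libraries, 69 of 5173 genes were higher (1.33%) and 55 were lower (1.06%). Gene lists below were chosen with earlier results of these data known.

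The promoters of some of these genes carry words that E2F factors are known to bind, and 5 stretches of 80 bases are shown because they hold such words within 250 bases before the start of a gene high in S phase. Words searched on both strands were TTTCCCGC, TTTCGCGC, TTTGCCGC and TTTGGCGC. TTTGAA and CCAAT were searched the same way, and neither lies within an E2F word. Sequences come from RefSeq for build GRCm38.p6, read 5′ to 3′ on the strand of the gene, with the E2F words in capitals.
Mcm5 (chr8:75109324-75109403, plus strand): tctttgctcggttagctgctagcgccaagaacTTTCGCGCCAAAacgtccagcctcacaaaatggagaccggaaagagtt
Mcm6 (chr1:128359709-128359788, minus strand): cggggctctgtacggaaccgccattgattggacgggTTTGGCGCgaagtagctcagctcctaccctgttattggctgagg
Cdc6 (chr11:98907977-98908056, plus strand): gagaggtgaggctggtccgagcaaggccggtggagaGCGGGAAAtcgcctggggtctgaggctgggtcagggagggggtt
Uhrf1 (chr17:56304092-56304171, plus strand, the second of 2 listed starts): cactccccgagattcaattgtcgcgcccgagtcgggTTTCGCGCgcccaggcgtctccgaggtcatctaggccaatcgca
Rfc3 (chr5:151651209-151651288, minus strand): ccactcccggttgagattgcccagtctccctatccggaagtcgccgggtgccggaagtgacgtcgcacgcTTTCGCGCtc
The first 3 are score genes, so their place in the class was set by the rule. Of 9 S score genes with an entry only these 3 held an E2F word, and Mcm2, Mcm3, Pcna, Slbp, Ung and Rrm2 held none. The word nearest the start lay 149 bases before it in Mcm5, 47 in Mcm6, 138 in Cdc6, 185 in Uhrf1 and 10 in Rfc3. In Mcm5 the capitals hold 2 words on opposite strands that share bases. An entry in the promoter table was found for 52 of the 69 genes higher in S-phase cells in all 3 libraries, and 8 of them (15.4%) held an E2F word. The share was 3 of 46 (6.52%) among genes lower in all 3 libraries, 4.91% of 4172 considered genes and 2.16% of all 27025 table genes. TTTGAA, the core of an element found in many mitotic promoters, was in 9 of the 46 lower genes (19.6%), 15.4% of the higher ones, 13.1% of the considered genes and 18.3% of the whole table. CCAAT, a common promoter element, was in 55.8% of the higher genes, 63.0% of the lower ones, 41.4% of the considered genes and 37.5% of the table. No histone gene was among the 52 higher genes with an entry. A match is a run of letters and not evidence of binding, and promoters of Ccne1, E2f8, Fam111a, Chaf1b and Brca1 held none of these E2F words in this window.

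Both cyclin E genes and the gene of E2F8 were high in S-phase cells. Ccne2 (cyclin E2) stood at 18.8 (16.7 to 21.0), 30.5 (28.5 to 32.5) and 23.6 (21.8 to 25.4) CPM in S-phase cells and at 5.04, 7.10 and 6.63 CPM in the other intact cells. Its ratio was 3.72 (3.02 to 4.6), 4.29 (3.77 to 4.90) and 3.55 (3.11 to 4.06). E2f8, an atypical E2F that represses other E2F targets, stood at 19.2, 33.8 and 34.0 CPM in S-phase cells and 5.54, 9.65 and 10.7 CPM outside, ratios of 3.46 (2.83 to 4.25), 3.51 (3.12 to 3.94) and 3.19 (2.86 to 3.55). At 0 ng/ml both genes stayed below 20 CPM and so were not counted in the comparison over 3 libraries. Of the 15 genes of the list of G1/S cyclins and E2F factors 8 were considered in all libraries. Of these, 3 were at least 25% higher (Ccne1, Cdk2 and Cdc25a) and none lower, beside 1.33% and 1.06% of all genes. The list median of the log2 ratio was 0.23, against 0.03 for all genes. Cdc25a, the phosphatase that activates Cdk2, had ratios of 1.47, 1.44 and 1.34. Of the D cyclins, which act earlier in G1, Ccnd1 had ratios of 0.993, 0.98 and 1.08, Ccnd2 1.12, 1.92 and 0.883 and Ccnd3 1.31, 1.24 and 1.27. At 5 ng/ml the ratio of Ccnd2 was above that of Ccne1.

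Origin genes outside the scores were mostly higher in S-phase cells. Of 21 genes of licensing and firing, 18 were considered, and 12 had a ratio above 1 in all 3 libraries. In all 3, 4 were at least 25% higher (Mcm4, Mcm10, Orc6 and Cdc45) and none 20% lower, beside 1.33% and 1.06% of all genes. The median log2 ratio was 0.25, against 0.03 for all genes. How many of all genes had a ratio above 1 in all 3 libraries was not counted. Counts above 1 in this and later lists therefore have no such share beside them. Mcm4, a helicase subunit, was at 158, 178 and 162 CPM against 109.6, 119.9 and 116 CPM. Cdc45, which turns the loaded MCM ring into an active helicase, was at 42.7, 41.9 and 42.2 CPM against 25.8, 25.3 and 27.4 CPM, ratios of 1.66 (1.49 to 1.85), 1.66 (1.53 to 1.8) and 1.54 (1.43 to 1.67). Cdt1, a loading factor whose protein is destroyed in S phase, was at 87.5, 100.1 and 95.5 CPM against 88.4, 96.6 and 96.7 CPM, and its intervals included 1 at each dose (0.991 (0.927 to 1.06), 1.04 (0.988 to 1.09) and 0.988 (0.942 to 1.04)). Gmnn, whose product geminin blocks Cdt1, had ratios of 1.23, 1.30 and 1.26.

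At the fork itself, 27 of 29 considered genes of 31 had ratios above 1 in every library (median 0.16, all genes 0.03). In every library 5 were at least 25% higher (Pold3, Rfc3, Rpa2, Wdhd1 and Clspn), beside 1.33% of all genes. Rfc3, a subunit of the loader of the Pcna clamp and 1 of the promoters shown above, was at 80.1, 89.4 and 89.3 CPM against 50.9, 53.7 and 58.3 CPM, ratios of 1.57 (1.46 to 1.7), 1.67 (1.58 to 1.76) and 1.53 (1.45 to 1.62). Clspn, which encodes claspin, a fork protein that relays stress to the kinase Chek1, had ratios of 1.48, 1.63 and 1.66. Among 19 considered genes of nucleotide supply, 14 were above 1 throughout (median 0.15). Tk1 and Dck were among the 3 at least 25% higher, beside the same 1.33% of all genes. Dck, a kinase that salvages deoxynucleosides, was at 27.5, 32.9 and 32.3 CPM against 19.1, 22.4 and 22.5 CPM. Tyms, thymidylate synthase, differed little, with ratios of 1.12, 1.09 and 1.04.

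Chromatin and repair genes were higher to a similar degree. All 15 genes of chromatin assembly and maintenance methylation were considered, and 14 were above 1 in every library (median 0.21, all genes 0.03). In every library 5 were at least 25% higher (Chaf1a, Chaf1b, Asf1b, Uhrf1 and Atad2), beside 1.33% of all genes. Uhrf1, which brings the maintenance methyltransferase to newly copied DNA and whose second start carries an E2F word, stood at 215 (208 to 222), 246 (240.2 to 252) and 241 (236 to 247) CPM in S-phase cells. In other intact cells it stood at 133, 155 and 152 CPM, so that the ratio was nearly the same at each dose (1.61 (1.54 to 1.69), 1.59 (1.54 to 1.65) and 1.58 (1.53 to 1.64)). Dnmt1, that methyltransferase, had ratios of only 1.02, 1.08 and 1.12. Chaf1b, a subunit of the CAF-1 histone chaperone, had ratios of 1.71, 1.56 and 1.50. Of 18 considered genes of replication stress and repair, 13 were above 1 throughout (median 0.19). Rad51ap1, Brca1, Chek1 and Casp8ap2 were at least 25% higher, beside the same 1.33% of all genes. Brca1, a mediator of homologous recombination, was at 99.2, 95.4 and 87.7 CPM against 64.3, 58.6 and 55.9 CPM.

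Outside these lists, the gene ranked first by mean log2 ratio among the 69 (predicted and ribosomal protein genes left out) was Fam111a, a protease that helps replication forks pass protein obstacles. It stood at 24.2 (21.9 to 26.7), 39.3 (37.1 to 41.7) and 38.5 (36.2 to 40.8) CPM in S-phase cells and 7.74 (6.70 to 8.88), 17.6 (16.4 to 18.9) and 20.5 (19.2 to 21.7) CPM in the others, ratios of 3.13 (2.63 to 3.73), 2.23 (2.04 to 2.45) and 1.88 (1.73 to 2.05). Its level in other intact cells was lower without ligand than with it, while its S-phase level differed less. The levels of 7.74 and 17.6 CPM were under the limit of 20 CPM, so Fam111a was considered in those libraries only through its S-phase level. Its largest ratio, 3.13, rests on the lowest of these levels. The place of Fam111a in the ranking therefore depends in part on its low levels in other intact cells. Wdr76 was also among the 12 highest, at 64.4, 54.6 and 51.6 CPM against 40.9, 33.3 and 28.8 CPM, and its ratio was 1.58 (1.45 to 1.72), 1.64 (1.53 to 1.76) and 1.79 (1.66 to 1.93). Of the other 10 of these 12 genes, 9 were histone genes and 1 was Ccne1.

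**Figure D2:**
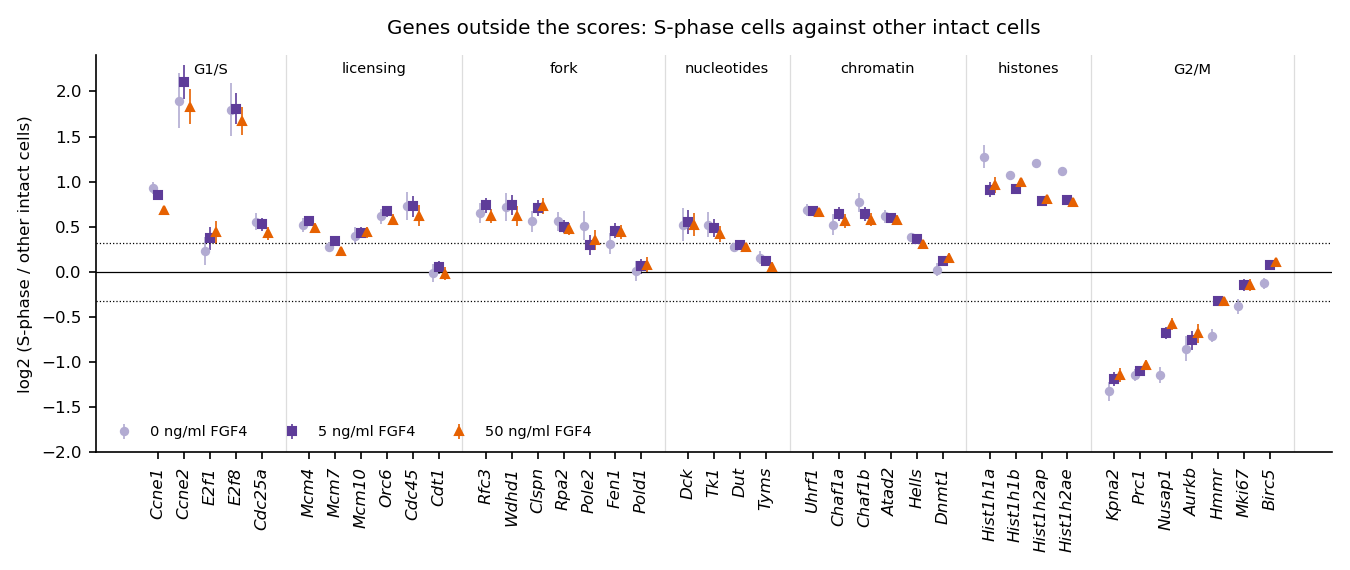
Log2 ratio of the CPM in S-phase cells to that in other intact cells (y axis) for genes outside the scores, grouped by role, with 1 marker per FGF4 dose, bars for the 95% counting interval and dotted lines at 25% higher and 20% lower. Of the genes drawn, Ccne2 and E2f8 lie highest and Kpna2 lowest at each dose.

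Genes of mitosis that the rule did not use were lower in S-phase cells than in the other intact cells, most of which were in G2 and M phase. Of 35 such genes, 33 were considered, and 11 were at least 20% lower in every library, beside 1.06% of all genes. None was 25% higher in every library, and the median log2 ratio was -0.24. The 11 were Hmmr, Kif11, Kif23, Nusap1, Ckap2l, Aurkb, Arl6ip1, Ccnf, Sgo1, Cks2 and Psrc1. Against the low cells alone the list was mostly higher in S-phase cells at 5 and 50 ng/ml and close to all genes at 0 ng/ml. Of 33 genes 18, 27 and 27 had a ratio above 1 at 0, 5 and 50 ng/ml. Median log2 ratios were 0.05, 0.16 and 0.12, beside 0.04, 0.07 and 0.07 for all genes. In that comparison 4, 4 and 6 of the 33 were at least 25% higher, where 6.86%, 6.32% and 6.53% of all genes were, and 4, 3 and 2 were at least 20% lower, where 5.98%, 1.89% and 1.86% were. Kpna2, an importin that carries cargo into the nucleus, ranked first among the 55 lower genes by the same measure, at 56.2, 61.7 and 58.6 CPM in S-phase cells against 141, 140.1 and 129 CPM. It was therefore 2.5, 2.27 and 2.2-fold higher in other intact cells at 0, 5 and 50 ng/ml. Prc1, which bundles microtubules of the mitotic midzone, was 2.2, 2.13 and 2.04-fold higher outside, and Fzr1, an activator of the ubiquitin ligase that ends mitosis, 2.23, 1.97 and 1.92-fold. Birc5 (survivin) and Mki67 differed less, with S-phase ratios of 0.916, 1.06 and 1.08 for Birc5 and 0.768, 0.905 and 0.905 for Mki67. Malat1, a nuclear noncoding RNA named here after its values were seen, was at 2731, 2155 and 1975 CPM in S-phase cells and 4534, 3672 and 3041 CPM in the others.

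Histone genes split the cells along another line than the score. They are listed as uncertain, because the libraries capture poly(A) RNA, replication-dependent histone mRNAs mostly lack a poly(A) tail, and reads of near-identical copies can be assigned to 1 copy or lost. The 67 histone cluster genes in the files summed to 5720, 5147 and 4436 CPM in S-phase cells, 1387, 2135 and 1695 CPM in G2 and M phase cells, and 5789, 5387 and 4513 CPM in cells low in both scores. S-phase cells thus had far more histone RNA than G2 and M phase cells and no more than the low cells. Whether some of the low cells were in S phase was not tested. Hist1h2ap (chr13:21833026-21833507, minus strand, build mm10), which held most of these UMIs, was at 3642, 3057 and 2699 CPM in S-phase cells, 3520.3, 3257 and 2818 CPM in the low cells and 763, 1189.9 and 942 CPM in G2 and M phase. Of 15 considered histone genes 11 were at least 25% higher in S-phase than in other intact cells in all 3 libraries (median log2 0.86). Of all genes 1.33% were. Against the low cells alone, 0 of 19 considered histone genes were that much higher at 0 ng/ml and 7 were lower, where 6.86% of all genes were higher and 5.98% lower. At 5 ng/ml 2 of 20 were higher and 3 lower, beside 6.32% and 1.89% of all genes, and at 50 ng/ml 1 of 16 was higher and 2 lower, beside 6.53% and 1.86%.

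Ccne1 did not share that pattern. Its ratio of S-phase to low cells was 2.30 (2.14 to 2.47), 1.85 (1.78 to 1.93) and 1.7 (1.65 to 1.77), and to G2 and M phase cells 1.78 (1.7 to 1.87), 1.79 (1.74 to 1.85) and 1.57 (1.53 to 1.61). Single cells showed the same contrast after thinning to 25000 UMIs. Ccne1 had a median of 7, 9 and 11 UMIs in S-phase cells and 3, 5 and 6 in the other intact cells. Histone UMIs ranged widely among the members. At 0 ng/ml their quartiles were 76.8, 164 and 211 UMIs, with a lowest cell of 7 and a highest of 306. At 50 ng/ml the quartiles were 82.8, 114 and 144, with extremes of 3 and 221. Among S-phase cells, histone UMIs and the sum of mitotic genes outside the score were negatively related, with r of -0.49, -0.44 and -0.44 over 144, 312 and 316 cells. Ccne1 and histone UMIs had r of 0.0067, 0.016 and -0.15, which differ in sign between doses, and no relation is read from them. The S score and the sum of 125 replication genes outside it had r of 0.48, 0.39 and 0.39 within the class. All these points share 1 library and 1 thinned depth per dose, and they are descriptions.

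**Figure D3:**
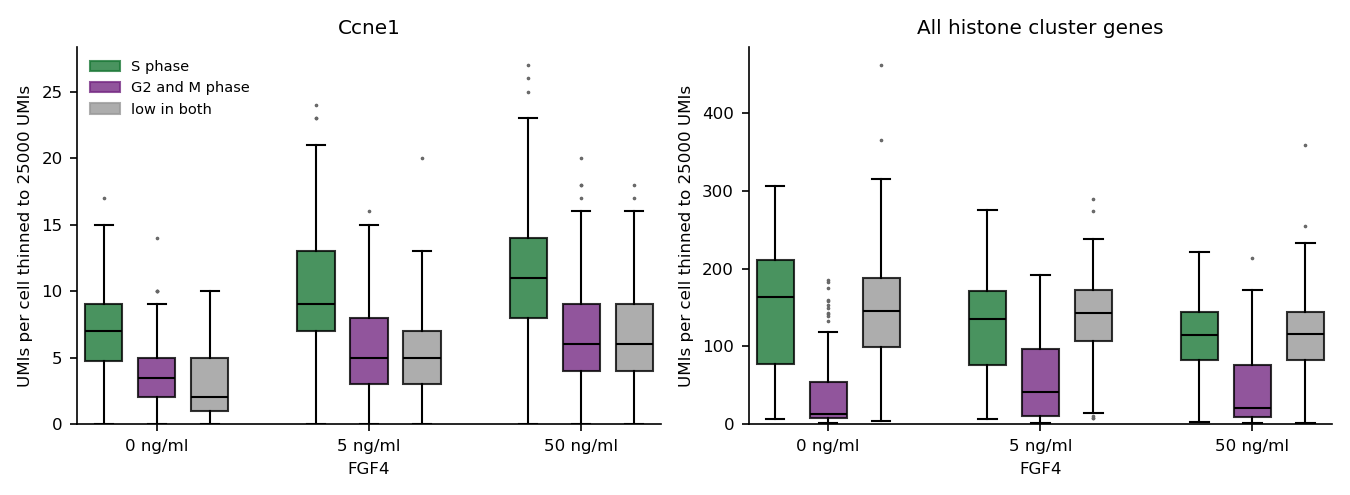
UMIs of Ccne1 (left) and of all histone cluster genes (right) per cell after thinning to 25000 UMIs (y axes), by FGF4 dose (x axis) and class, as boxes with the median and quartiles, whiskers to 1.5 times the quartile range and points beyond. Ccne1 medians of 7, 9 and 11 in S-phase cells stand above both other classes, while histone boxes of S-phase cells overlap those of cells low in both scores.

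Naive pluripotency genes were compared between the classes next. Of 17 considered naive genes, which mark the ground state of these cells, 1 was at least 20% lower in S-phase cells in every library. None was 25% higher in every library, and the list median was -0.06. Of all genes 1.06% were that much lower and 1.33% that much higher. In single libraries 1 of 17, 5 of 18 and 3 of 18 were at least 20% lower at 0, 5 and 50 ng/ml, beside 4.28%, 2.42% and 2.07% of all genes, and none was 25% higher. The gene lower in all 3 libraries was Pecam1, an adhesion molecule, at 28.3, 30.2 and 27.2 CPM against 39.7, 39.4 and 35.1 CPM. Nanog stood at 277, 152 and 106 CPM in S-phase cells and 282, 151 and 104 CPM outside, and its intervals included 1 at each dose (0.983 (0.947 to 1.02), 1.00 (0.965 to 1.04) and 1.02 (0.973 to 1.07)). Pou5f1 (Oct4) likewise had ratios of 1.03, 1.02 and 0.981. Zfp42 (Rex1) had 0.911, 0.788 and 0.833 and Tdgf1, a co-receptor for Nodal, 0.793, 0.817 and 0.802. Against G2 and M phase cells alone the naive list had median log2 ratios of -0.12, -0.11 and -0.13. There 1, 5 and 5 genes were at least 20% lower, beside 5.11%, 3.65% and 3.60% of all genes. Against the low cells the medians were 0.02, 0.07 and 0.11, beside 0.04, 0.07 and 0.07 for all genes. In that comparison 1 gene was 20% lower at each dose, and 1, 1 and 3 were 25% higher. The list was thus lower on balance only against G2 and M phase cells.

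S-phase genes were compared across doses next. Genes reaching 20 CPM in at least 1 of the 2 libraries were considered, and ratios of at least 2-fold were counted. In S-phase cells 1.52% of 5721 genes were higher and 1.14% lower at 5 than at 0 ng/ml (87 and 65 genes), and 1.91% of 5709 were higher and 1.87% lower at 50 than at 0 ng/ml (109 and 107). Between 50 and 5 ng/ml 0% of 5529 were higher and 0.0904% lower (0 and 5 genes). The comparisons with 0 ng/ml share that library. None of the considered genes in the 6 replication lists passed 2-fold in any of these comparisons, and the list medians for 50 against 0 ng/ml were between 0.10 and 0.16, against 0.04 for all genes. Scaling by TMM or median-of-ratios factors put that median over all genes between 0.04 and 0.05.

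Ccne1 (chr7:38097984-38107534, minus strand, mm10) had the largest dose difference among the markers of the class. In S-phase cells it was 1.52-fold (1.46 to 1.57) higher at 5 and 1.64-fold (1.58 to 1.7) higher at 50 than at 0 ng/ml. In other intact cells these ratios were 1.60-fold (1.54 to 1.66) and 1.95-fold (1.88 to 2.02). Both classes therefore stood higher with ligand, and the S-phase to other ratio was lower at 50 than at 0 ng/ml, as given above. Ccne2 was highest at 5 ng/ml in S-phase cells, with 1.62-fold (1.42 to 1.86) at 5 and 1.26-fold (1.09 to 1.44) at 50 against 0 ng/ml. E2f8 was 1.77-fold (1.56 to 2.02) higher at 50 than at 0 ng/ml, and its levels at 5 and 50 ng/ml differed by less than the counting interval (1.01-fold (0.919 to 1.10)). Slbp, the stem-loop binding protein of histone mRNA, was a score gene, so its level is no independent result. It stood at 165 (159 to 171), 209 (204 to 214) and 207 (201 to 212) CPM in S-phase cells.

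Cdc6, Rrm2, Pcna, Ung and Mcm3 were score genes, and their values helped to pick the members within each library. Their levels by dose differed little and are no independent result. Cdc6 stood at 70.3 (66.2 to 74.5), 71.8 (68.7 to 74.9) and 68.3 (65.3 to 71.5) CPM in S-phase cells, and its ratio of 50 to 0 ng/ml was 0.972-fold (0.903 to 1.05). Rrm2, a subunit of the enzyme that makes deoxynucleotides, was at 255, 282 and 284 CPM and Pcna, the sliding clamp, at 384, 416 and 417 CPM. Ung, which removes uracil from DNA, was at 139.9, 124 and 131 CPM, highest without ligand, and Mcm3 was likewise highest there at 328, 279 and 280.0 CPM. Histones of the S-phase cells were lower with more ligand: of 16 considered genes 15 were lower at 50 than at 0 ng/ml, none passed 2-fold, and the median log2 ratio was -0.40. In other intact cells 7 of 12 were lower and the median was -0.05. Hist1h2ap was 1.35-fold (1.33 to 1.36) lower at 50 than at 0 ng/ml in S-phase cells and 1.03-fold (1.02 to 1.04) lower in the pooled other intact cells. That pool joins cells that went opposite ways: Hist1h2ap went from 3520.3 to 2818 CPM in the low cells, much as in S-phase cells, and from 763 to 942 CPM in G2 and M phase cells. The lower histone level at 50 ng/ml was thus shared by S-phase and low cells. At 5 against 0 ng/ml 10 of 20 histone genes in S-phase cells were higher.

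Genes for D cyclins and inhibitors of cyclin-dependent kinases were compared at 50 against 0 ng/ml in S-phase cells. Of 9 considered genes 1 (Ccnd2) was at least 2-fold higher and 1 (Cdkn1b) lower, beside 1.91% and 1.87% of all genes. Ccnd2 was considered only through the library with ligand, because it was under 20 CPM without it. Ccnd2 (cyclin D2, chr6:127125162-127152193, minus strand, mm10) stood at 8.34 (6.99 to 9.87), 61.4 (58.6 to 64.3) and 47.6 (45.1 to 50.2) CPM in S-phase cells. In other intact cells it stood at 7.43 (6.42 to 8.55), 32.0 (30.3 to 33.7) and 53.9 (51.9 to 56.0) CPM. It was low without ligand in both classes, highest in S-phase cells at 5 ng/ml, and highest in other intact cells at 50 ng/ml. At 0 ng/ml 33.3% of its 135 UMIs in S-phase cells came from 3 cells, against 8.90% and 7.0% at the other doses. Cdkn1b, which encodes the inhibitor p27, was 2.01-fold (1.71 to 2.37) lower at 50 than at 0 ng/ml, and Cdkn1a, the p53 target p21, 1.43-fold (1.34 to 1.52) lower. Ccnd1 was 1.34-fold (1.28 to 1.40) higher and Cdk6 1.62-fold (1.46 to 1.81).

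**Figure D4:**
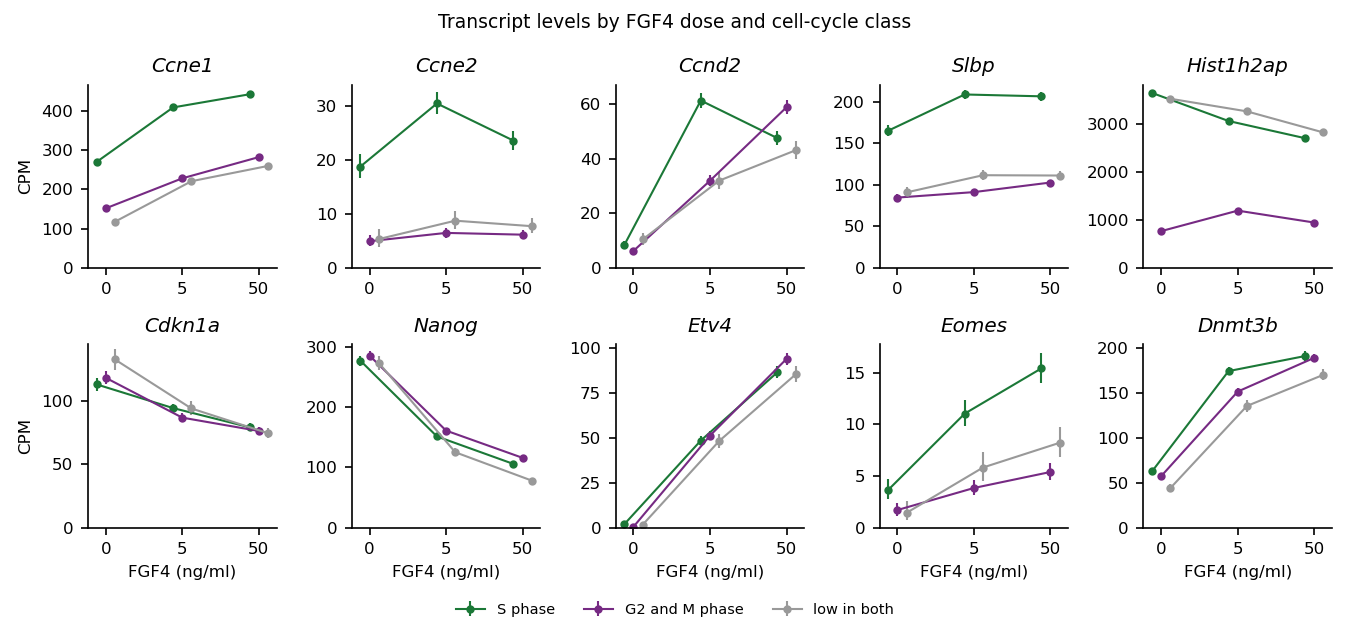
CPM (y axes, from 0) of 10 genes by FGF4 dose (x axis) in S-phase cells, G2 and M phase cells and cells low in both scores, with 95% Poisson intervals. Ccne1, Ccne2 and the score gene Slbp lie highest in S-phase cells at each dose. Ccnd2 is highest in S-phase cells at 5 ng/ml and in G2 and M phase cells at 50 ng/ml, and the classes nearly coincide for Etv4.

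The FGF response was present in S-phase cells. Of 19 genes of the FGF and ERK list 10 were considered at 50 against 0 ng/ml, with a median log2 ratio of 1.66. Of these, 7 were at least 2-fold higher and 1 lower, where 1.91% and 1.87% of all genes were. At 5 against 0 ng/ml 5 of 8 were higher and 1 lower (median 1.3), where 1.52% and 1.14% of all genes were. Genes under 20 CPM without ligand were considered only through the library with ligand, so these counts and medians lean towards higher values. Within the 0 ng/ml library 3 of the 19 reached 20 CPM in S-phase or other intact cells, against 9 at 50 ng/ml. Etv4, an ETS factor induced by ERK, was at 1.85, 48.6 and 86.6 CPM, and only 30 UMIs supported the first value, 46.7% of them from 3 cells. It was 46.8-fold (32.7 to 69.5) higher at 50 than at 0 ng/ml in S-phase cells and 119-fold (76.8 to 195) outside, where 20 UMIs were counted without ligand. Spry4, a feedback inhibitor of the receptor pathway, had 1, 399 and 770 UMIs in S-phase cells at 0, 5 and 50 ng/ml. Spry2, of the same family, stood at 6.05, 38.7 and 47.8 CPM and Myc at 2.28, 17.4 and 22 CPM, both lowest without ligand. Egr1, an immediate early gene, went the other way, at 41.6, 16.6 and 11.5 CPM, 3.63-fold (3.17 to 4.16) lower at 50 than at 0 ng/ml. Etv5, at 169, 199.6 and 178 CPM, differed little.

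Naive genes of S-phase cells were lower with ligand on balance, with a median of -0.31 at 50 against 0 ng/ml. Of 18 considered genes 6 were at least 2-fold lower and 2 higher. Of all genes 1.87% were that much lower and 1.91% higher, shares that also belong beside the list counts below. Nanog was 2.62-fold (2.5 to 2.75) lower, Tfcp2l1 2.89-fold (2.73 to 3.07) lower and Dppa3, a maternal factor of the naive state, 2.89-fold (2.64 to 3.15) lower. Gbx2 and Dppa4 were the 2 higher ones, at 2.21-fold (1.94 to 2.51) and 2.10-fold (1.95 to 2.25). Formative genes, which mark the state after the naive one, were higher, 4 of 8 by at least 2-fold (median 1.27). Dnmt3l, a cofactor of de novo DNA methylation, was at 9.63 (8.18 to 11.3), 131 (127 to 135) and 168 (163 to 172) CPM and Lef1, a Wnt pathway factor, at 9.76, 63.6 and 78.7 CPM. Dnmt3b, a de novo methyltransferase, was 3.05-fold (2.85 to 3.27) higher. Of 10 general pluripotency genes 4 were at least 2-fold higher and none lower, among them Utf1 at 43.8, 276 and 337 CPM. Of 10 considered imprinted genes 5 were higher and none lower (median 1.01), and the noncoding RNA Meg3 was at 42.4, 169.9 and 187 CPM. The formative and imprinted counts have the same limit as the FGF list. Within the 0 ng/ml library 5 and 7 of their genes reached 20 CPM, against 8 and 10 at 50 ng/ml.

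Genes with the largest ratios outside the lists included Gja1 and Calcoco2. Gja1, the gap junction protein connexin 43, was at 4.32, 64.0 and 67.6 CPM in S-phase cells and 15.6-fold (12.3 to 20.1) higher at 50 than at 0 ng/ml. Bst2, a membrane protein that tethers viruses, was at 3.40, 31.8 and 42.5 CPM and Zyx, a focal adhesion protein, at 2.47, 16.2 and 25.7 CPM. Among genes lower with ligand, Calcoco2, an autophagy receptor, had the largest ratio, at 186, 26.0 and 16.3 CPM, 11.4-fold (10.3 to 12.6) lower at 50 ng/ml. Mobp was at 62.4, 10.3 and 6.81 CPM, Rnf213, a ubiquitin ligase, at 37.3, 6.60 and 4.73 CPM, and Sfrp1, a secreted Wnt inhibitor, at 53.6, 14.9 and 9.89 CPM. Of the 109 genes higher at 50 than at 0 ng/ml in S-phase cells, 93 were also among the 117 higher ones in other intact cells (85.3% and 79.5% of these lists). For lower genes 91 were in both, 85.0% of 107 and 68.9% of 132. Other intact cells had 2.04% of 5738 genes higher and 2.3% lower.

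**Figure D5:**
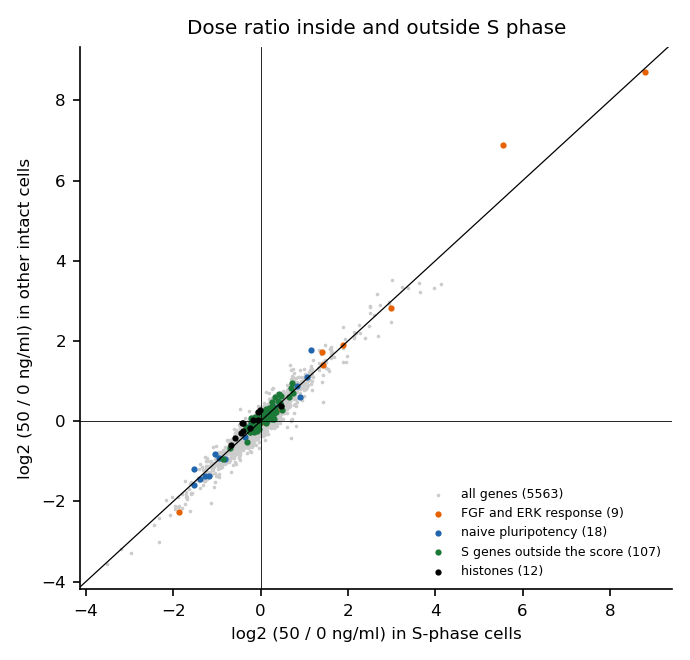
Log2 ratio of 50 to 0 ng/ml FGF4 in S-phase cells (x axis) against that in other intact cells (y axis), with 1 point per considered gene and the line of equal ratios. Several FGF and ERK genes and naive genes lie far from 0 near the line, no replication gene passes 2-fold in S-phase cells, and the 2 rightmost points, Spry4 and Etv4, rest on few UMIs without ligand.

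Between 5 and 50 ng/ml the S-phase cells differed in few genes. The 5 genes at least 2-fold lower at 50 ng/ml were Slamf1, Dqx1, Tmem80, Bc1 and 1700120C14Rik. Slamf1, a receptor of the immune system, was at 35.9, 39.1 and 15.0 CPM, and 3 cells held 63.2, 50.1 and 48.3% of its UMIs at 0, 5 and 50 ng/ml. Tmem80 was at 8.46, 25.3 and 10.6 CPM, with 46.0, 48.8 and 38.4% in 3 cells. These values therefore rest on few members of each library. Dqx1 was at 65.4, 130.0 and 58.6 CPM and Bc1, a small noncoding RNA, at 18, 54.3 and 21.0 CPM. Both were highest at 5 ng/ml and were spread over more cells, with 26.3, 16.6 and 10.0% of UMIs in 3 cells for Dqx1 and 27.4, 8.99 and 9.06% for Bc1. In other intact cells 0.127% of 5501 genes were higher and 0.0727% lower at 50 than at 5 ng/ml.

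A few genes had a different dose ratio in S-phase and other intact cells, and no test of that difference was possible. Genes were taken whose higher pool reached 50 CPM in each class. The log2 ratio of 50 to 0 ng/ml exceeded that of other intact cells most for Lefty1, Exoc1, Dnmt3l, Hes1, Gja1 and Nusap1. It fell short of it most for Etv4, Lef1, Gadd45a, Sgk1, Msmo1 and Pbld1. In S-phase cells Etv4, Gja1, Dnmt3l, Lef1 and Gadd45a reached 50 CPM only through the library with ligand. The place of these 5 genes in the ranking depends on their low levels at 0 ng/ml, and no class difference is read from it. Hes1, a repressor downstream of Notch, stood at 79.8 (75.5 to 84.3), 22.3 (20.6 to 24.1) and 15.8 (14.4 to 17.3) CPM in S-phase cells and 87.3 (83.7 to 91.0), 17.9 (16.7 to 19.2) and 10.8 (9.95 to 11.8) CPM outside. It was 5.05-fold (4.53 to 5.64) lower in S-phase cells and 8.05-fold (7.33 to 8.85) lower outside. Gadd45a, a stress response gene, stood at 18.2, 41.5 and 50.8 CPM in S-phase cells and 19.3, 50.8 and 71.7 CPM outside, 2.79-fold (2.46 to 3.17) higher against 3.72-fold (3.38 to 4.09). Exoc1, a subunit of the exocyst, was at 50.8, 61.0 and 77.0 CPM against 80.8, 74.4 and 73.4 CPM, and 3 cells held 33.2, 26.4 and 20.2% of its S-phase UMIs. Nusap1, a spindle gene, was at 82.8, 95.6 and 89.0 CPM in S-phase cells and 183, 153 and 133 CPM outside.

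Variation among cells, named in the title of the study, was read within the class. The mean distance between S-phase cells (1 minus the Pearson correlation of log2 UMIs plus 1, over 8472 genes at 25000 UMIs per cell) was 0.260, 0.263 and 0.257 at 0, 5 and 50 ng/ml. G2 and M phase cells had 0.267, 0.267 and 0.261, and cells low in both 0.284, 0.267 and 0.263. S-phase cells thus had the smallest mean distance of the 3 classes in each library, by small margins. Other settings were run for the S-phase cells only, so the order of the classes was not checked under them. Within S-phase cells the dose order was not the same with Spearman correlation, where the values were 0.462, 0.457 and 0.451. The summed naive genes varied more among S-phase cells with ligand, with a variance to mean ratio (Fano factor) of 3.29, 4.98 and 4.74 and a coefficient of variation of 0.244, 0.326 and 0.328. Median sums were 54, 47 and 44 UMIs, and the lowest cell had 26, 6 and 13. Other intact cells had Fano factors of 4.55, 5.98 and 5.87. Histone sums varied less with ligand, with coefficients of variation of 0.550, 0.493 and 0.441 in S-phase cells, while those of Ccne1 were 0.496, 0.444 and 0.422 at rising mean levels.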

How the data were processed

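Fgf4 -/- E14tg2a cells at 3 FGF4 doses were profiled with 10x 3' chemistry, 1 library per dose. The deposited matrices hold UMI counts per gene and cell, made with Cell Ranger 4.0.0 per the file headers, on mm10 per the submitters' processing notes. Of 32285 gene IDs, 32158 matched GENCODE M21, which gave the coordinates. No count model was used, because no dose had a replicate.

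Counts were summed over the S-phase, G2 and M phase and low cells of each library and scaled to CPM, with exact Poisson intervals for levels and exact binomial (Clopper-Pearson) ones for ratios and shares (95%). PCR and sampling of cells are not covered. Per-cell values were thinned to 25000 UMIs. Called doublets stayed in, and were left out as an alternative. Ratios were counted from 20 CPM in the higher pool. Genes were named from 22 lists of 344 genes, from the 12 largest ratios each way, or from the 6 largest differences of the 50 to 0 ng/ml ratio each way (from 50 CPM). One item is not reported here. The members and lists were chosen with earlier results of these data known. Libraries held 42726514, 75184072 and 81409975 UMIs in 373, 874 and 975 cells. Python 3.11.15, NumPy 2.4.6, SciPy 1.17.1, scanpy 1.11.5 and matplotlib 3.10.9 were used, and the ratio and interval code was tested on simulated data.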

Additional observations from a re-analysis of the deposited data

Results flagged for a closer look

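In 3 genes the direction of a contrast was opposite in 2 groups of cells, and none of these differences was tested, because each dose was 1 library. Lefty1, an inhibitor of Nodal, had a log2 ratio of S-phase to other intact cells of -0.53, -0.06 and 0.36 at 0, 5 and 50 ng/ml. It stood at 79.2, 60.1 and 35.8 CPM in S-phase cells, and 3 cells held 26.4, 14.8 and 14.2% of those UMIs. Tmem80, a membrane protein, had a log2 ratio of S-phase to other intact cells of -1.81, 0.60 and -0.75 at 0, 5 and 50 ng/ml. For Tmem80 the log2 ratio of 5 to 0 ng/ml was 1.58 in S-phase cells, where the level was 8.46, 25.3 and 10.6 CPM at 0, 5 and 50 ng/ml, and the other intact cells went the other way, at 29.6, 16.7 and 17.9 CPM. In S-phase cells 3 cells held 46.0, 48.8 and 38.4% of its UMIs. Ccnd2 had a log2 ratio of 50 to 5 ng/ml of -0.37 in S-phase cells, while it was 1.69-fold (1.58 to 1.8) higher at 50 than at 5 ng/ml in the other intact cells. Its log2 ratio of S-phase to other intact cells was 0.17, 0.94 and -0.18 at 0, 5 and 50 ng/ml.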

How the results depend on the processing

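No paired analysis was possible because each dose was 1 library. Results were recomputed over 19 settings, part of which gave only counts of genes or distances. Of 1038 gene values from the remaining settings, 891 stayed within their counting interval, 146 moved beyond it and 1 reversed. That was Pbld1, whose log2 ratio of 50 to 0 ng/ml in S-phase minus other cells became 0.15 with an S value above 0.5 SD. A reversal was counted only for values past their fold limit as reported. Any change of sign in a smaller value is among the 891 and 146. That limit gave 30.6%, 30.2% and 31.0% of cells and 30 genes lower than in other cells in all 3 libraries. Scores after thinning gave 39.9% at 5 ng/ml, and scores in SD over 3 libraries 34.5% at 0 ng/ml. From 1 CPM, 271 genes were higher and 295 lower than in other cells, 558 and 470 at 5 against 0, 612 and 717 at 50 against 0, and 38 and 78 at 50 against 5 ng/ml. From 50 CPM the counts were 40 and 24, 44 and 29, 56 and 45, and 2 lower at 50 against 5 ng/ml. With a 1.5-fold limit they were 18 and 13, 234 and 204, 280 and 313, and 4 and 23. Genes higher at 50 than at 5 ng/ml numbered 2 with thinning, with 0.5 SD, with all deposited cells (3 lower) and with median-of-ratios factors, and 1 with mean z-scores of genes, without called doublets, with TMM and with mean shares per cell. Leaving out 1 library, a choice made after seeing the data, gave 76 to 110 genes higher than in other cells (110 without 0 ng/ml) and 70 to 78 lower. Spearman distances among S-phase cells were 0.462, 0.457 and 0.451 at 0, 5 and 50 ng/ml. With 1 library per dose, differences between cultures cannot be told apart from dose, and genes under 20 CPM are limited by their UMIs.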

Other observations

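Eomes and Cdx2, regulators of later lineages, stood higher in S-phase cells than in the other intact cells. Both were singled out after their values were seen, neither reached 20 CPM, and their lists did not do the same. Of 12 primitive streak genes 2 were considered, none was above a ratio of 1 in all 3 libraries, and the list medians of the log2 ratio were -0.24, -0.006 and -0.04 at 0, 5 and 50 ng/ml. The 1 considered trophectoderm gene had log2 ratios of 0.19, 0.03 and -0.27. Eomes, a factor of the primitive streak and trophoblast, was at 3.64, 11 and 15.4 CPM in S-phase cells and 1.62, 4.39 and 6.28 CPM outside, ratios of 2.25 (1.49 to 3.43), 2.51 (2.09 to 3.02) and 2.45 (2.12 to 2.84) at 0, 5 and 50 ng/ml. Cdx2, a factor of trophectoderm and posterior mesoderm, was at 5.62, 12.8 and 16.8 CPM against 1.50, 6.08 and 8.63 CPM. At 0 ng/ml only 59 UMIs of Eomes and 91 of Cdx2 were counted in S-phase cells, and 22% and 15.4% of them came from 3 cells. Both genes were highest at 50 ng/ml in both classes.

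Targets of p53, which holds cells at checkpoints, stood lower in S-phase cells than in the cells low in both scores. Of 12 considered genes 8 were at least 20% lower at 0 ng/ml, with a median log2 ratio of -0.38, where 5.98% of all genes were that much lower. At 5 and 50 ng/ml 3 of 11 were lower, where 1.89% and 1.86% of all genes were. Against G2 and M phase cells the medians were only -0.07, -0.06 and -0.01 at 0, 5 and 50 ng/ml. There 0 of 10, 1 of 12 and 0 of 10 were at least 20% lower, beside 5.11%, 3.65% and 3.60% of all genes. The difference was thus mainly one from the low cells. Mdm2, which directs p53 for destruction, was at 90.3, 62.5 and 59.7 CPM in S-phase cells and 119.8, 92.8 and 88.9 CPM in the low cells. Zscan4d, which marks the rare 2-cell-like state and belongs to a family of near-identical genes whose reads may be split, had 2, 1 and 15 UMIs in S-phase cells and 281, 123 and 1520 in the low cells at 0, 5 and 50 ng/ml.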
